A study of Mus musculus with 8 samples.

Results

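The 10 genes described here encode the switch that lets a cell leave G1: the D-type cyclins (Ccnd1, Ccnd2, Ccnd3), their kinases (Cdk4, Cdk6), inhibitors of these kinases (Cdkn1a, Cdkn1b, Cdkn2c) and the retinoblastoma protein with a relative (Rb1, Rbl1). They were taken by name from 22180 genes on the array, each read on the probe set with the highest mean over all 8 arrays among those that name exactly 1 gene. Rb1 had 2 such probe sets and each of the other 9 genes had 1, so all 10 were measured and no filter on low values was applied.

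Pancreatic islets were collected from 4 Fzd9-proficient mice (WT) and 4 mice lacking the Wnt receptor Fzd9 in the whole body (KO), and the comparison asks which genes differ early after Myc is switched on. All 8 were C57Bl/6 mice of either sex between 8 and 12 wk old, carried MycER and BclXL, and had been given tamoxifen for 3 d. MycER joins Myc to an estrogen receptor fragment and is made in β-cells from an insulin promoter and activated by tamoxifen, and BclXL, also driven by an insulin promoter, keeps these cells from apoptosis. Each mouse gave 1 array, made from a pool of its hand-picked islets, although the sample labels call the tissue insulinoma. Mice without active Myc were not analysed here, so the response to Myc itself is not measured.

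In G1, D cyclins bind Cdk4 or Cdk6, and the complex phosphorylates Rb1 and its relatives, which then release E2F transcription factors and allow DNA replication to start. Cdkn2c (p18) binds the kinases and keeps the cyclins away, whereas Cdkn1a (p21) and Cdkn1b (p27) bind cyclin and kinase together and are strongest against Cdk2. In mouse β-cells Cyclin D2 is the D cyclin on which postnatal growth mostly depends, and mice without Cdk4 become diabetic. Ccnd2 and Cdk4 are well known Myc targets, and Myc represses Cdkn1a.

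The values are log2 levels after RMA, which removes background, normalizes between arrays and gives 1 value for the probes in each set. A log2 difference of 1 is a doubling. Levels of different genes were not compared, because probe sets differ in their response. β-cell markers were present in every mouse, with a mean of 9 measured markers between 6.56 and 7.45 (Ins1 was not among those measured). WT mouse 3 and KO mouse 1 gave the arrays that correlated least with the rest (mean r of 0.897 and 0.893, against 0.917 to 0.926). These mice also had the highest mean of 27 markers of acinar cells, the enzyme-secreting cells around islets, at 5.36 and 6.46, against 3.64 to 4.55 in the other 6. As a gauge of background, each value was set against the 95th percentile of 1405 olfactory and vomeronasal receptor probe sets on the same array. These genes were taken to be mostly silent in islets, and the percentile lay between 3.14 and 4.57. In a mixed tissue such as this, fewer cells of a type and less RNA per cell cannot be told apart. The genes of the 10 and the lists beside them were fitted with all 41345 probe sets in limma, and "rose" and "fell" are used where the unadjusted p was under 0.05 and the change reached 1.2-fold, the threshold of the study.

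Of the 10 genes, Rbl1 fell in KO islets, 0 rose and the remaining 9 were short of the threshold. At this threshold 2.45% of all 22180 genes passed, 1.17% of them lower and 1.28% higher in KO, so 1 gene in 10 is a count too small to be read against that share. No gene of the 10 had an adjusted p under 0.05 (limma with Benjamini-Hochberg adjustment, all at 1.00 when rounded), as for every probe set on the array, where limma put 1444 (3.49%, all with a fold of at least 1.2) and the methods' t-test 1622 under an unadjusted p of 0.05. The log2 fold changes of the 10 lay between −0.59 and 0.17 with a median of −0.22, beside a median of 0.00 over all genes. Of the 10, 7 were below 0, with Cdkn1a close to 0 and joining them when arrays were centred on their medians. Over all genes 50.0% were below 0, and 57.6% of those above the median level of the probe sets. The KO and WT values overlapped for each of the 10 genes. Of all genes 2.36% had no overlap, and 10 genes are too few to be read against that share.

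**Figure D1:**
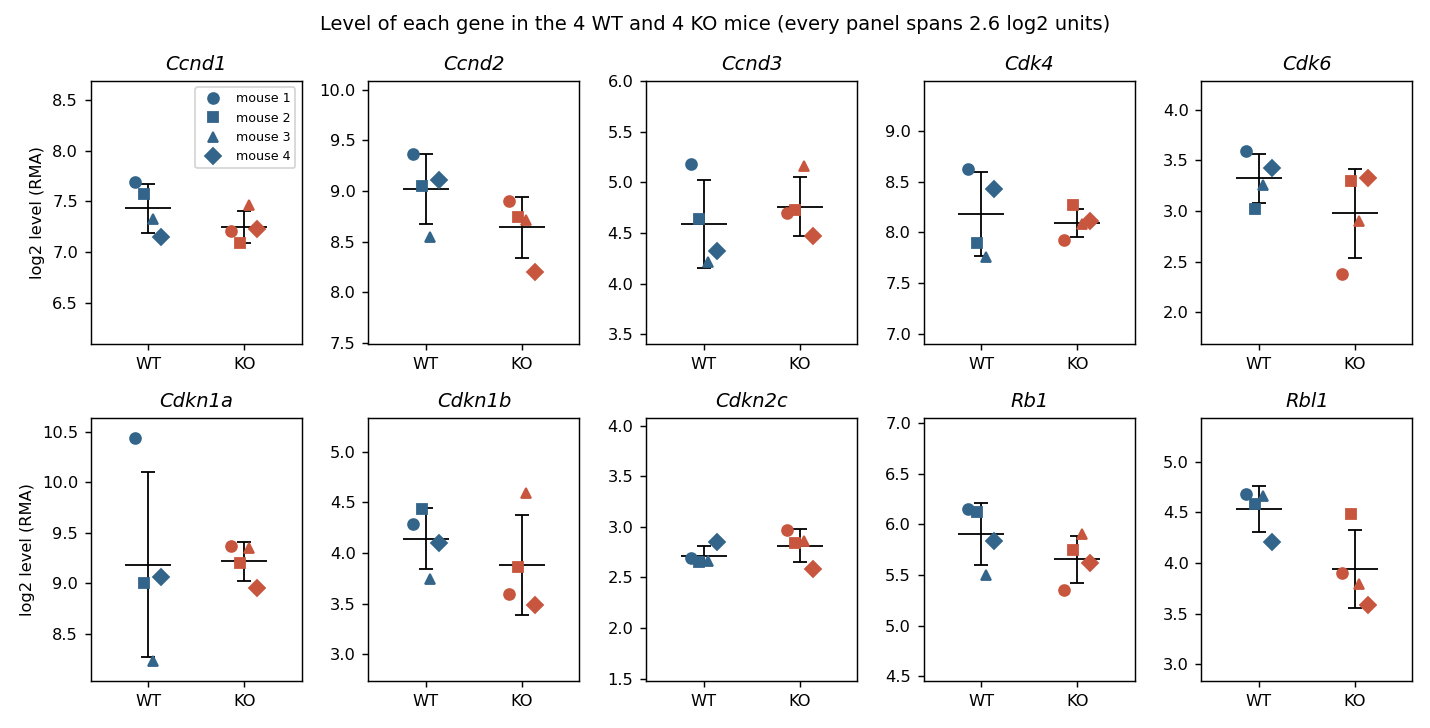
Log2 level after RMA (y axis, every panel spanning the same range) of each of the 10 genes in the 4 WT and 4 KO mice, with a marker shape for each mouse number and the mean ± SD as a bar. The genotypes overlap in every panel, and the Rbl1 means, 4.54 in WT and 3.94 in KO, lie farthest apart.

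Rbl1 encodes p107, a relative of Rb that binds E2F factors and is itself switched on by them when cells enter the cycle. Its level was 4.69, 4.59, 4.66 and 4.20 in WT mice 1 to 4 and 3.91, 4.48, 3.79 and 3.59 in KO mice 1 to 4. Only KO mouse 2 reached into the WT range, where it lay above WT mouse 4. The mean fell from 4.54 ± 0.22 to 3.94 ± 0.38 (SD, n = 4 each), a log2 difference of −0.59 (SE 0.24, 95% interval −1.13 to −0.06), or 0.663 of the WT level. The unadjusted p was 0.0325 by limma, and an exact two-sided permutation test over the 8 mice gave p = 0.0571, where 4 against 4 allow no less than 0.0286. Rbl1 was above the background gauge in all 4 WT mice but in 2 of 4 KO mice, not in KO mice 1 and 4, so the size of the fall is uncertain.
The fall did not pass the threshold when WT mouse 1, 2 or 3 was left out (−0.54, −0.58 and −0.55), or KO mouse 1, 3 or 4 (−0.58, −0.54 and −0.48). Without WT mouse 4 it was −0.70 and without KO mouse 2 −0.77, both past the threshold. Without WT mouse 3 and KO mouse 1 together, the pair with the most acinar RNA, it was −0.54 and did not pass.

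The 100 bases before the start of Rbl1 are shown because E2F control of this gene is the best known link between the Rb relatives and the cycle, and 100 bases of the Mcm5 promoter, from −190 to −91 relative to its start, are set beside them because Mcm5 had the lowest p in the list of E2F targets described further on. Capitals mark matches on either strand to the E2F motifs TTTCGCGC, TTTGGCGC or TTTCCCGC, which in Mcm5 overlap in opposite directions. The stretches come from RefSeq (GRCm38.p6), at chr2:157204535-157204634 on the minus strand for Rbl1 and chr8:75109319-75109418 on the plus strand for Mcm5.
Rbl1: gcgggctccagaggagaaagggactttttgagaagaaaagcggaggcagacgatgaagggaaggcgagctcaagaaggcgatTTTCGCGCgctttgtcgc
Mcm5: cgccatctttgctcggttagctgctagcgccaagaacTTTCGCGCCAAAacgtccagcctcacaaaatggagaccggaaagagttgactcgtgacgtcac
Such a motif was found in 1.84% of 32851 promoter windows of 300 bases, each from 250 bases before a start to 50 after it. It was in 1 of 10 windows of the genes described here, that of Rbl1, and in 16 of 39 windows of the E2F target list. The Mcm5 stretch was chosen to hold its matches. The window of Chaf1b, the other E2F target that fell, held 0 matches. The RefSeq table matched 7 of the 10 genes (not Ccnd1, Ccnd2 and Rb1). A match of letters is not a measured binding site.

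Rb1, which holds E2F factors in check until it is phosphorylated, had levels of 6.15, 6.13, 5.50 and 5.84 in the WT mice and 5.35, 5.75, 5.90 and 5.61 in the KO mice. WT mouse 3 and KO mouse 1 were the lowest of their genotypes. The means were 5.90 ± 0.30 and 5.65 ± 0.23 (SD, n = 4 each), with a log2 fold change of −0.25 (95% interval −0.75 to 0.25). The other probe set of Rb1 was dim, with means of 1.79 and 1.59 in WT and KO, and above the background gauge in 0 of 8 mice. Its log2 fold change was −0.19 (95% interval −0.63 to 0.25).

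None of the D cyclins passed the threshold with all 8 mice, and Ccnd2 came nearest to it. Its transcript had levels of 9.37, 9.05, 8.55 and 9.10 in the WT mice and 8.90, 8.74, 8.71 and 8.20 in the KO mice. All KO mice were below WT mice 1, 2 and 4, but WT mouse 3 was below all KO mice except mouse 4. The means were 9.02 ± 0.34 and 8.64 ± 0.30 (SD, n = 4 each), with a log2 fold change of −0.38 (95% interval −0.92 to 0.16, unadjusted p = 0.150 by limma) that did not pass the threshold. WT mouse 3 decided this call. Without it Ccnd2 fell by 0.54 (limma unadjusted p = 0.0456), and without KO mouse 1 as well by 0.62 (limma unadjusted p = 0.0306). More genes passed in general in these settings: 815 without WT mouse 3 and 689 without WT mouse 3 and KO mouse 1, against 543 with all 8 mice. The acinar markers stood highest in WT mouse 3 and KO mouse 1, and their part in the result was not tested.

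Ccnd1, the cyclin that growth factors and Wnt signals induce in many cells, had levels of 7.69, 7.57, 7.33 and 7.15 in the WT mice and 7.21, 7.09, 7.47 and 7.23 in the KO mice. WT mice 1 and 2 were above every KO mouse and WT mouse 4 was below 3 of them. The log2 fold change was −0.18 (95% interval −0.63 to 0.26), and it stayed between −0.28 and −0.10 when single mice were left out.
Ccnd3, the D cyclin best known from lymphocytes and muscle, pointed the other way without passing the threshold. Its levels were 5.19, 4.64, 4.22 and 4.32 in the WT mice and 4.69, 4.73, 5.16 and 4.47 in the KO mice, so that WT mouse 1 and KO mouse 3 stood above the rest. The log2 fold change was 0.17 (95% interval −0.41 to 0.76), and 0.37 without WT mouse 1. KO mouse 3, the highest KO mouse for Ccnd1, Ccnd3, Cdkn1b and Rb1, also had the highest mean of 8 endothelial markers (6.64, against 4.47 to 6.49 in the other mice). The part of endothelial cells in these levels was not tested.

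**Figure D2:**
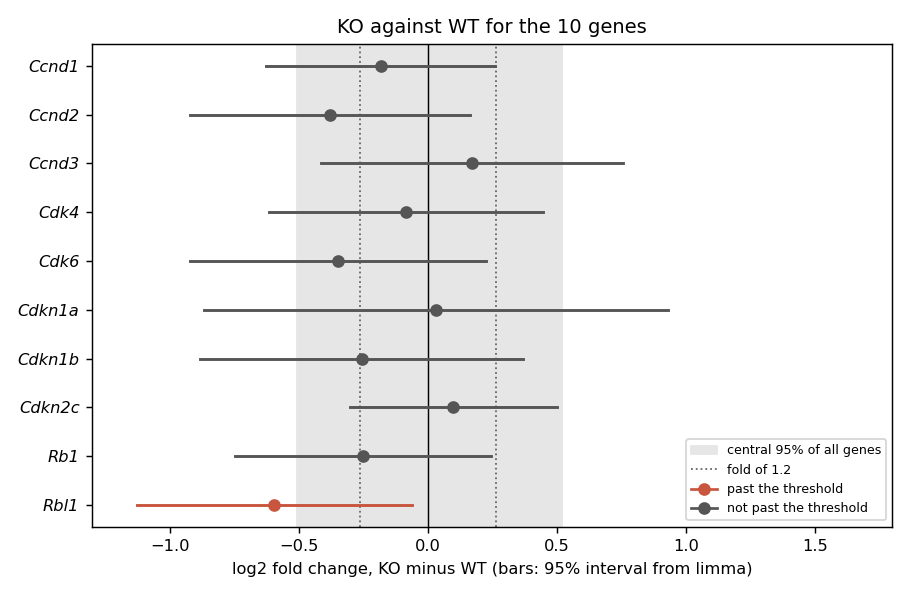
Log2 fold change, KO minus WT, of the 10 genes (x axis) with the 95% interval from limma as a bar, over the central 95% of all 22180 genes in grey and the fold of 1.2 as dotted lines. Rbl1, at −0.59, has the only interval of the 10 that leaves out 0.

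Of the kinases, Cdk4 spread over a narrower range in KO islets than in WT islets, and the means were close. Its levels were 8.63, 7.90, 7.76 and 8.43 in the WT mice and 7.92, 8.27, 8.08 and 8.11 in the KO mice. The KO values lay between the lower and the upper pair of WT mice, with means of 8.18 ± 0.42 and 8.09 ± 0.14 (SD, n = 4 each). The log2 fold change of −0.09 (95% interval −0.62 to 0.44) turned to 0.06 without WT mouse 1.
Cdk6, which serves the same step in many cells and is reported to be scarce in mouse β-cells, was near background. In 2 of 8 mice it exceeded the background gauge. Its levels were 3.59, 3.02, 3.26 and 3.42 in the WT mice and 2.38, 3.30, 2.90 and 3.33 in the KO mice, the lowest being KO mouse 1. The log2 fold change was −0.35 (95% interval −0.92 to 0.23), and −0.15 without KO mouse 1.

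The region before Cdk4 is shown because this gene is a known Myc target and Myc was switched on in both genotypes. Capitals mark the E-box CACGTG, the motif to which Myc binds with its partner Max, and the stretch is chr10:127063335-127063534 on the plus strand (RefSeq, GRCm38.p6).
Cdk4: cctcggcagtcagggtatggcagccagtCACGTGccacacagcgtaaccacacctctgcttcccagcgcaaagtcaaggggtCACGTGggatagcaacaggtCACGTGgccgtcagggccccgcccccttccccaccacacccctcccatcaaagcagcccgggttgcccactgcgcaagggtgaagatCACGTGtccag
The motif occurred 4 times before Cdk4, at 172, 118, 98 and 11 bases upstream of the start. It was present in 7.15% of all promoter windows, and among the 10 windows of these genes in those of Cdk4, Cdk6 and Cdkn2c, with 1 match in each of the other two.

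Among the inhibitors Cdkn1a varied most. p21 is raised by p53 and by many stress and growth signals. Its level was 10.44 in WT mouse 1, 9.003 in WT mouse 2, 8.24 in WT mouse 3 and 9.07 in WT mouse 4. The KO mice had 9.37, 9.20, 9.35 and 8.95, all between the WT extremes. The means were thus nearly equal, 9.19 ± 0.92 in WT and 9.22 ± 0.19 in KO (SD, n = 4 each), with an SD in WT 4.77 times that in KO. The log2 fold change of 0.03 (95% interval −0.86 to 0.93) had no stable sign. It was 0.45 without WT mouse 1 and −0.28 without WT mouse 3, and turned slightly below 0 when arrays were centred on their medians. A fold between 0.549 and 1.90 is within the interval, so a change of moderate size could not have been seen.
The wider spread in WT held for 6 of the 10 genes, and for 54.1% of all genes.

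For Cdkn1a RefSeq (GRCm38.p6) gives a pair of starts. The stretch before the first of them, chr17:29090889-29090978 on the plus strand, is shown because it holds matches to the motif of p53, marked in capitals. Only exact matches are marked, so a site with a mismatch stays in lower case.
Cdkn1a: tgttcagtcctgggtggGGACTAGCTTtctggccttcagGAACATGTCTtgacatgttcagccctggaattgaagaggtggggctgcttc
The p53 motif, searched on both strands as the 10 bases that a pair of p53 subunits contacts, was in 8.36% of all promoter windows, in 8 of 23 windows of the p53 target list and, among the 10 windows here, in this one.

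Cdkn1b had levels of 4.29, 4.44, 3.74 and 4.10 in the WT mice and 3.60, 3.87, 4.59 and 3.48 in the KO mice. KO mouse 3 was the highest of all 8 and the other KO mice were below WT mice 1, 2 and 4. The log2 fold change was −0.26 (95% interval −0.88 to 0.37) and −0.49 without KO mouse 3, neither past the threshold. It exceeded the background gauge in 5 of 8 mice.
Cdkn2c, which menin keeps on in endocrine cells together with Cdkn1b, was at the level of background in every mouse, between 2.66 and 2.85 in WT and between 2.58 and 2.97 in KO. In 0 of 8 mice did it exceed the background gauge. Its log2 fold change of 0.10 (95% interval −0.30 to 0.50) therefore says little about the transcript.

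**Figure D3:**
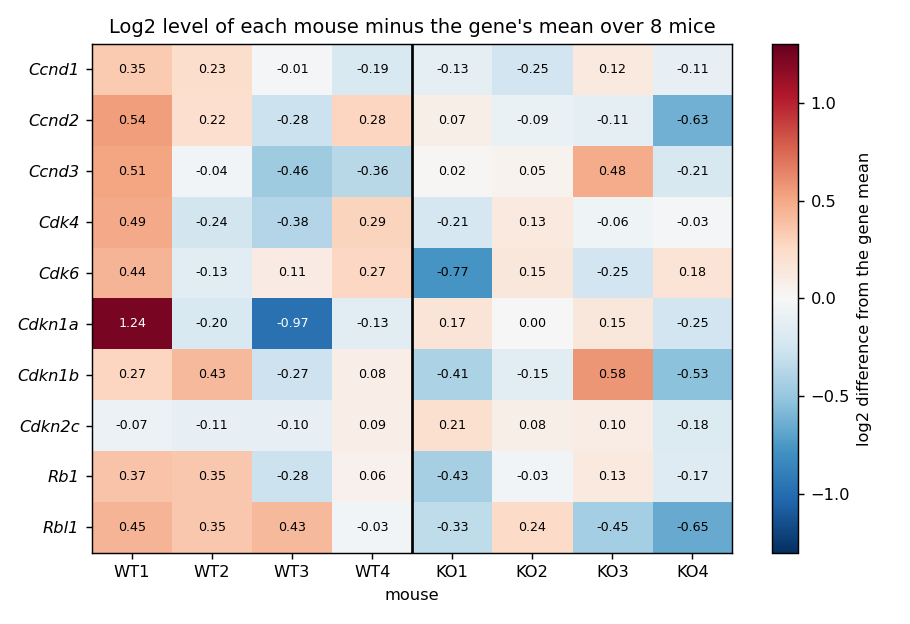
Log2 level of each of the 8 mice (columns, WT left and KO right of the line) minus the mean of the gene over all 8 (rows), in red above and in blue below the mean. WT mouse 1 is the highest WT mouse for 8 of the 10 genes, and its Cdkn1a value, 1.24 above the mean, is the highest entry.

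Single WT mice stood high or low for several of the 10 genes at a time, activators and inhibitors alike. WT mouse 1 was the highest WT mouse for 8 of the 10 genes, all except Cdkn1b and Cdkn2c, where this held for 28.2% of all genes and 40.4% of those above the median level. WT mouse 3 was the lowest WT mouse for 6 of them, where this held for 30.2% and 43.0%. The array of WT mouse 1 had the widest spread of values (SD 1.87) and that of WT mouse 3 the narrowest (SD 1.67). After quantile normalization, which makes the spreads equal, WT mouse 1 was the highest WT mouse for 6 of the 10 (29.2% of all genes and 34.0% of those above the median level) and WT mouse 3 the lowest for 5. The mean of the β-cell markers was also highest in WT mouse 1 (7.45), and the part of either measure was not tested.
With each gene centred on its mean, the D cyclins and kinases were 0.47 above their average in WT mouse 1 and the inhibitors 0.48 above theirs. The difference between these, a simple balance of the D cyclins and kinases against the inhibitors, was −0.01, −0.03, 0.24 and 0.05 in the WT mice and −0.19, 0.02, −0.24 and 0.16 in the KO mice. The genotypes overlapped, with means of 0.06 ± 0.13 and −0.06 ± 0.19 (SD, n = 4 each). The difference of the means, −0.12, ran from −0.20 without KO mouse 4 to −0.06 without WT mouse 3, and was −0.02 without WT mouse 3 and KO mouse 1 together. It is given as a description, without a test, and includes Cdk6 and Cdkn2c, which were at or near background. Of the inhibitors, Cdkn1a was farthest from its mean in WT mice 1 and 3, at 1.24 and −0.97.

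Genes that act beside these 10 in the G1/S transition were read as a further list. Of 37 measured genes, among them E2F factors, their Dp partners, Cyclin E1, Cdk2, other kinase inhibitors and Skp2, which marks p27 for destruction, 0 rose and 0 fell, with 0 at an unadjusted p under 0.05 by limma and 0 by the methods' t-test. With 2.45% of all genes past the threshold, about 1 call in 37 genes would match that share, and the count of 0 is not a result about the list. The median log2 fold change was 0.05 and the range −0.51 to 0.33. The genes nearest to the threshold were Cdk7, a kinase that activates other cyclin-dependent kinases, at −0.51 (95% interval −1.12 to 0.11), and Cdkn2b (p15), an inhibitor of Cdk4 and Cdk6, at 0.27 (95% interval −0.24 to 0.79). Cdk7 did not exceed the background gauge in KO mouse 1. Rbl2 (p130), the remaining member of the Rb family, was at −0.08 (95% interval −0.74 to 0.58) and is named after its value was seen.

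Among genes that E2F switches on for DNA replication and division, few passed. Of 38 measured E2F targets 2 fell, 0 rose and 36 did not pass, which is 5.26% lower against 1.17% of all genes. A count of 2 in 38 is too small to be read against that share. The median log2 fold change was −0.10, and 27 of the 38 were below 0, beside 50.0% of all genes and 57.6% of those above the median level.
Mcm5, a subunit of the replicative helicase, was at 5.17, 5.73, 5.07 and 5.74 in the WT mice and 4.70, 5.07, 4.63 and 4.73 in the KO mice. KO mouse 2 just passed WT mouse 3 and the others were below every WT mouse. It fell by 0.64 on the log2 scale (SE 0.23), and was at −0.54 without WT mouse 2 or WT mouse 4, when it did not pass.
Chaf1b, which loads histones onto new DNA, was at 3.81, 4.03, 3.15 and 4.15 in the WT mice and 3.31, 3.42, 2.92 and 2.80 in the KO mice, with WT mouse 3 below KO mice 1 and 2. It fell by 0.67 on the log2 scale (SE 0.27), and it did not pass without WT mouse 1, 2 or 4 or KO mouse 3 or 4, at −0.66, −0.59, −0.55, −0.61 and −0.57. It exceeded the background gauge in 3 of 4 WT mice and 1 of 4 KO mice, so the size of its fall is uncertain.
Next to the threshold lay Pole, the catalytic subunit of DNA polymerase ε, at −0.44 (95% interval −0.90 to 0.01), and Tk1, thymidine kinase, at 0.60 (95% interval −0.08 to 1.28). Pole exceeded the background gauge in 1 of 4 KO mice, and Tk1 in 3 of 4 mice of each genotype. Tk1 was at 5.40 in KO mouse 1, against 4.44, 4.33 and 4.01 in KO mice 2 to 4. Without WT mouse 2 no E2F target passed. In 3 other settings an E2F target rose: Mki67, a proliferation marker, as the only call without WT mouse 4, Mcm10, a replication factor, without KO mouse 3, and Tk1 without KO mouse 4. Mki67 and Mcm10 are named after their values were seen.

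**Figure D4:**
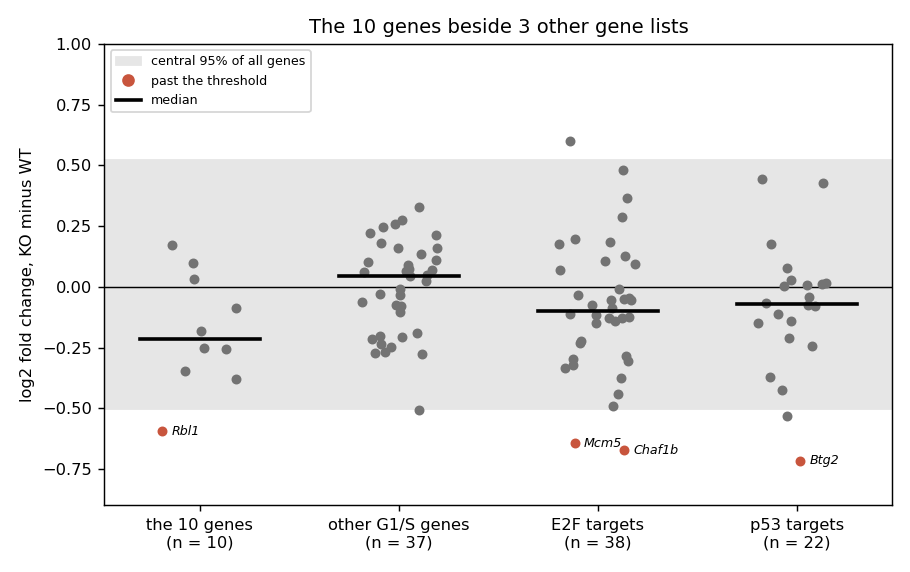
Log2 fold change, KO minus WT (y axis), of each measured gene of the 10 genes and of 3 other lists (x axis), with the median as a black line, genes past the threshold in red and the central 95% of all genes in grey. Rbl1, Mcm5, Chaf1b and Btg2 are the genes past the threshold, all lower in KO.

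Because Cdkn1a is a target of p53, other p53 targets were read beside it. Of 22 measured, 1 fell, 0 rose and 21 did not pass (4.55% lower, against 1.17% of all genes), and the list had its median at −0.07. A count of 1 in 22 is too small to be read against that share. Btg2, an antiproliferative gene that belongs to the early response genes as well, was at 7.50, 8.80, 8.12 and 8.62 in the WT mice and 7.30, 7.55, 7.82 and 7.50 in the KO mice. KO mice 2 and 3 lay above WT mouse 1 and below the remaining WT mice. It fell by 0.72 on the log2 scale (SE 0.29). It did not pass without WT mouse 2 (−0.54) or WT mouse 4 (−0.60), or KO mouse 1 (−0.63), 2 (−0.72) or 4 (−0.70). Nearest to the threshold were Bbc3 (Puma) at 0.45 (95% interval −0.11 to 1.00) and Pmaip1 (Noxa) at 0.43 (95% interval −0.31 to 1.16), both killers of the Bcl-2 family, with Pmaip1 above the background gauge in 2 of 8 mice. WT mouse 1, in which Cdkn1a was highest, also had the highest mean of this list, at 5.62 against 5.02 to 5.58 in the other WT mice and 5.07 to 5.46 in the KO mice. It was the highest WT mouse for 9 of the 22 genes, where this held for 28.2% of all genes and 40.4% of those above the median level. The count is not a result about the list.

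Early response genes, which growth signals and stress switch on ahead of the D cyclins, are given for comparison. Of 17 such genes 13 fell and 0 rose (76.5% lower, against 1.17% of all genes), and the median difference was −1.37. Of the 17, 0 had an adjusted p under 0.05 (limma with Benjamini-Hochberg adjustment). Jun, Fosb, Rgs2 and Fos had the lowest p, at −1.45, −3.49, −2.01 and −2.09. This list was written with earlier results of these data known, and its direction is not independent evidence. The mean of the list was 5.81, 7.52, 6.20 and 6.49 for WT mice 1 to 4, and ran from 5.05 to 5.22 across the KO mice. WT mouse 2 was highest there and WT mouse 1 lowest of the WT mice. Of the 10 genes, 8 were highest in WT mouse 1 among the WT mice, Cdkn1b in WT mouse 2 and Cdkn2c in WT mouse 4. A relation between the early response genes and the 10 was not tested.

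**Figure D5:**
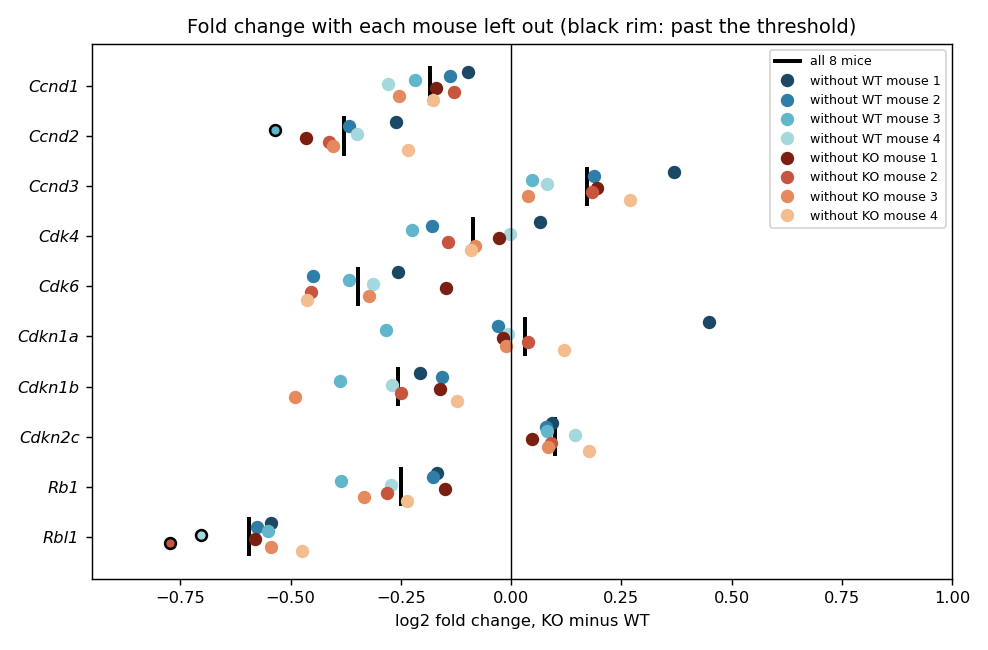
Log2 fold change, KO minus WT (x axis), of the 10 genes with all 8 mice (black line) and with each mouse left out in turn (points, blue for WT and red for KO mice, black rim where past the threshold). Rbl1 is past the threshold in 2 of the 8 settings, Ccnd2 in 1, and Cdkn1a runs from −0.28 to 0.45.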

How the data were processed

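Islet RNA of 8 mice was hybridised to Affymetrix Mouse Gene 2.1 ST arrays, 1 per mouse. The deposited values are log2 expression that the authors made with RMA. The submitters' notes name RMA and Partek, and versions, settings and the genome build are not given in the sources used here. Of 41345 probe sets, 23521 name 1 gene, 1820 several and 16004 none. Symbols were updated through Entrez ID for 23328.

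The genotypes were compared in limma (version 3.58.1, R 4.3.3), using lmFit and eBayes on the values as deposited, without a filter, a block or added normalization. Adjusted p-values are over all probe sets. Lists were described by counts and medians on the brightest probe set of each gene. Named were all 10 genes, every list gene past the threshold (up to 6 per list and direction), the 2 nearest to it, and 4 early response genes. The members and lists were chosen with earlier results of these data known. Steps were tested on simulated data. Motifs were searched in RefSeq promoter windows. The alternatives were a t-test with pooled variance, limma with a trend, robust statistics or array weights, 3 normalizations and the mouse number as a block. Further ones were a limit to probe sets above the median level, averaging over the probe sets that name a gene, and leaving out mice. The study's methods give a t-test for comparing groups and name no test for the arrays. Precision is limited by the number of arrays. Labels name separate mice.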

Additional observations from a re-analysis of the deposited data

How the results depend on the processing

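Rbl1 stayed below 0 under all 19 alternatives, from −0.77 to −0.48, and passed the threshold under 11. Ccnd1, Ccnd2, Cdk6, Cdkn1b and Rb1 stayed below 0 and Ccnd3 and Cdkn2c above it under every alternative run, and of these only Ccnd2 ever passed, under 2 of them. The t-test, trend, robust statistics, block and limit to probe sets above the median level refit the same values, so no fold change could move there. Averaging over probe sets could move only Rb1 among the 10. A sign kept in these settings is therefore not evidence that it is stable. Of the 10 genes 0 passed with array weights (Rbl1 at −0.52), and between 0 and 1 with single mice left out. E2F targets past the threshold numbered 4 by the t-test, 4 with array weights and 4 without WT mouse 3 and KO mouse 1. With single mice left out they numbered between 0 and 3, with 1 of them higher in KO without WT mouse 4, KO mouse 3 or KO mouse 4. p53 targets numbered 0 by the t-test, 0 after quantile normalization, 2 after cyclic loess (Bbc3 rose), 0 without WT mouse 3 and KO mouse 1, and between 0 and 1 with single mice left out. Without KO mouse 1 the 1 that passed was Bbc3, higher in KO. Cdkn1a changed sign with array weights (−0.0021), centring on the median (−0.0015) and without WT mouse 3 and KO mouse 1 (−0.34), and ran from −0.28 to 0.45 with single mice left out. Cdk4 ran from −0.23 to 0.06 in the same way and was above 0 only without WT mouse 1 (0.065). The cause of these changes was not tested. Over all genes 543 passed, 263 when only probe sets above the median level were tested, which are fewer and leave out Cdkn2c, and 815 without WT mouse 3.

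Mouse numbers recur in both genotypes, but the mice are different animals and the labels do not say that they are pairs. Same-numbered mice deviated from their group means with correlations of −0.10, 0.02, 0.07 and 0.24. Differently numbered mice were not compared, so these correlations cannot decide whether same-numbered mice have anything in common. With the mouse number as a replicate block, 1 of the 10 genes passed (Rbl1, unadjusted p = 0.0351 by limma), 0 other G1/S genes, 2 E2F targets and 1 p53 target, and no call changed. Over all genes the block moved the count from 543 to 450. No group of 4 mice in the 20 examined for the 10 genes held an outlying mouse by Dixon's criterion, where 1 would be due by chance. Cdkn2c and the dim probe set of Rb1 lay within background, Cdk6 mostly so, and Cdkn1b and Rbl1 in 3 and 2 of 8 mice, which limits what can be seen for them.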
